A study of Mus musculus with 24 samples.

Results

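The 10 genes described here carry out bile acid synthesis and bile formation in the mouse liver: Cyp7a1, Cyp8b1, Cyp27a1 and Cyp7b1, the hydroxylases of the synthesis pathways; Baat, which conjugates bile acids to amino acids; Nr1h4 and Nr0b2, the nuclear receptors FXR and SHP; Abcb11, Abcb4 and Slc10a1, the transporters of bile salts and phospholipid. They were taken by gene symbol from the deposited tables, and 10 of the 15741 genes listed in any table were members. All 10 were listed in all 10 tables. RNA was sequenced from 24 livers in 8 groups of 3 mice. A group was defined by genotype (WT, or GCN2 KO, here KO), diet (Control, or LeuD, a diet without leucine) and circadian time of killing (CT03, in the subjective day, or CT15, in the subjective night). Every mouse, controls included, was housed alone with free access to food, had 2 days on the control diet under a 12 h light and 12 h dark schedule, and then kept that diet or changed to LeuD when a dark phase began. Darkness became constant 24 h after that point and lasted 8 days. For the mice, the strain, age and sex, and the allele and tissues of the GCN2 deletion, were not given in the sources used here. GCN2, encoded by Eif2ak4, is a protein kinase that senses amino acid shortage.

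Bile acids are made from cholesterol in hepatocytes. In the classic pathway Cyp7a1 performs the rate-limiting step and Cyp8b1 decides how much of the product is 12-hydroxylated, as in cholic acid, while Cyp27a1 and Cyp7b1 act in the alternative pathway. Bile acids that return to the liver activate FXR, which induces Nr0b2 and the canalicular pump Abcb11, and SHP in turn represses Cyp7a1 and Cyp8b1. Hepatic Cyp7a1 is known for its daily rhythm, which follows the clock and feeding.

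The libraries held 34137121 to 44884200 recovered reads, and values below are read counts divided by a size factor set over all 24 libraries (normalized counts). Summed hepatocyte markers, 7 of 7 listed, reached 84999 to 183364 RPM (reads scaled to library size). Summed cholangiocyte markers, 5 of 7 listed, stayed at 28.8 to 78.1. Summed pancreatic acinar markers, 13 of 13 listed, ranged from 9.47 to 14131 and were above 200 in 5 libraries: KO Control CT03 replicate 3 (257), KO Control CT15 replicate 1 (633), KO LeuD CT03 replicate 1 (14131), KO LeuD CT15 replicate 3 (7524) and WT LeuD CT15 replicate 1 (4115). The 6 KO LeuD libraries also had the lowest share of mitochondrially encoded reads, 2.24% to 4.14% against 4.23% to 6.32% elsewhere, and the highest share of albumin reads, 11.81% to 15.34% against 6.14% to 10.91%. Summed erythroid markers, 5 of 5 listed, were 212 to 460 RPM in the 12 Control libraries (median 306) and 78.1 to 275 in the 12 LeuD libraries (median 123). Summed pericentral hepatocyte markers, 7 of 7 listed, were 9587 to 13681 RPM in WT LeuD and 5350 to 11907 in KO LeuD libraries. They were 5276 to 10327 in WT Control and 7554 to 11671 in KO Control. Summed periportal markers, 6 of 6 listed, were 9306 RPM in KO Control CT03 replicate 3 and 9182 in KO Control CT15 replicate 1. Their group mates held 4030 to 5060 and 3569 to 6216. Chi-square per degree of freedom against the mates was 204 to 238 and 350 to 409, with 45.2 and 91.5 between the mates. The part of these differences in the results was not tested. Counts of Eif2ak4 did not separate the genotypes: 287 to 349 normalized counts in the libraries labelled WT and 243 to 463 in those labelled KO. A count over the whole gene cannot show a deletion of part of it, so the genotype rests on the labels alone, and KO below means the libraries labelled so. In bulk liver, fewer cells of a type and less RNA per cell cannot be told apart.

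Cyp8b1, Nr0b2 and Abcb11, on which several results below turn, have a promoter entry in the RefSeq table of build GRCm38.p6. The 250 bases before each start are shown because each holds a match to a nuclear receptor motif. Capitals mark the match, and positions count back from the start, with -1 as the last base shown.
Cyp8b1 (chr9:121916306-121916555, minus strand): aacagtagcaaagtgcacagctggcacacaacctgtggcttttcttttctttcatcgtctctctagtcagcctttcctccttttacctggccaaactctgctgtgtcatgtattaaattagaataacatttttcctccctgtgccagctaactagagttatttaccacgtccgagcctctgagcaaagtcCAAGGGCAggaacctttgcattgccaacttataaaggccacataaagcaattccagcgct
Nr0b2 (chr4:133553126-133553375, plus strand): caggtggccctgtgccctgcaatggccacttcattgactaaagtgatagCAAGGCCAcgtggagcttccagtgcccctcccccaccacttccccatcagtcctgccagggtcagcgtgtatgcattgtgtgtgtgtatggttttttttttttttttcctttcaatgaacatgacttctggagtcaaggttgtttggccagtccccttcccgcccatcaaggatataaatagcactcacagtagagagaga
Abcb11 (chr2:69342617-69342866, minus strand): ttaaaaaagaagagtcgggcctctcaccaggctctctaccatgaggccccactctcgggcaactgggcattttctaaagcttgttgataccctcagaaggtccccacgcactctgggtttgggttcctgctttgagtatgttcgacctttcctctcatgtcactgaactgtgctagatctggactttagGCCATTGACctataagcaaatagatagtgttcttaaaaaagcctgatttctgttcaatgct
Both strands of the 300 bases from -250 to 50 past the start were searched. CAAGGNCA, an extended half-site of the type bound by LRH-1 (Nr5a2), matched Cyp8b1 as CAAGGGCA from -60 and Nr0b2 as CAAGGCCA from -201, and 6.71% of 32851 promoters hold it. GNCANTGNC, the core of the inverted repeat bound by FXR with its outer bases relaxed, matched Abcb11 as GCCATTGAC from -61. It is held by 8.77% of promoters, and its strict form GTCANTGAC, held by 0.387%, matched none of the 7 members with an entry. TAGGTCA, a REV-ERB half-site held by 2.61%, matched the other strand of Abcb11 from -56 and overlaps the FXR-type match. TTANGNAA, a relaxed PAR bZIP and NFIL3 site held by 11.5%, matched Cyp27a1 once and the second of the Slc10a1 entries at 2 positions. CANGTG, the E-box, held by 44.9%, matched Nr0b2 from -250 and, as CACGTG overlapping the half-site, from -195, and Cyp8b1 11 bases past the start. Nr1h4 and Abcb4 held none of these letters. A match describes the sequence, not binding.

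In RPKM (reads scaled to merged GENCODE M21 exon length and to library size), a scale on which genes can be compared, Slc10a1, which takes bile salts up from blood, had the highest median level of the members over 24 libraries, 329, with a range of 134 to 488. Cyp27a1 followed at 163 (92.5 to 202), then Cyp8b1 at 117 (23.8 to 282), Baat at 98.5 (40.8 to 142), Abcb11 at 79.7 (41.4 to 180), Cyp7b1 at 74.9 (27.3 to 211), Nr1h4 at 57.8 (35.7 to 100.3), Nr0b2 at 26.0 (7.94 to 54.4), Abcb4 at 23.0 (14.7 to 48.5) and Cyp7a1 at 18.3 (4.10 to 91.1). The ranges of neighbours in this order overlap in every case. The enzymes that open each route differed most in spread. Cyp7a1 varied 22.6-fold between its lowest and highest library, 678 and 15348 normalized counts, while Cyp27a1 varied 2.23-fold, between 7953 and 17757. The plot of normalized counts by library shows the 10 genes together.

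**Figure D1:**
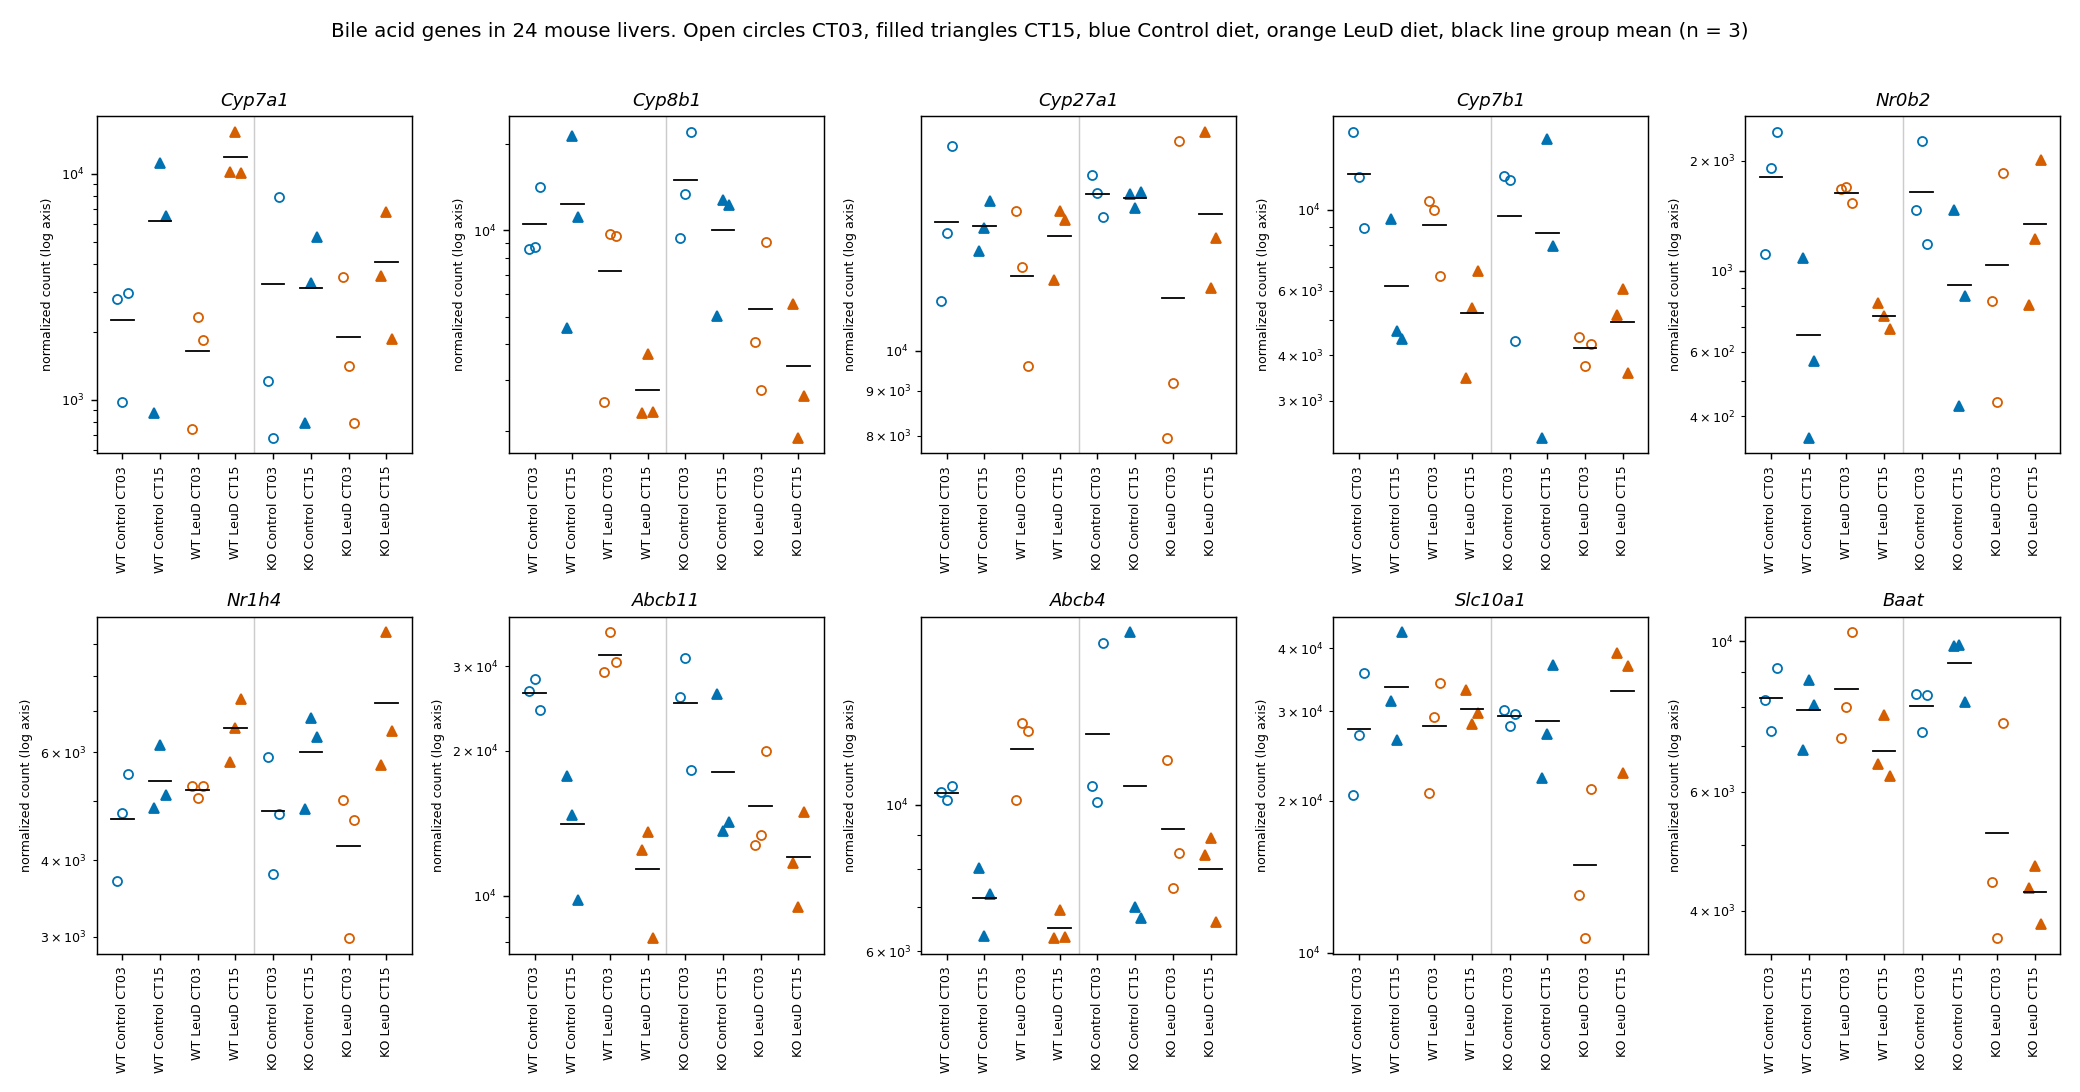
Normalized counts (log axis) of the 10 genes in each of 24 livers, by group on the horizontal axis; open circles are CT03, filled triangles CT15, blue Control, orange LeuD, and black lines group means of 3 mice. WT LeuD livers at CT15 have the highest group mean of Cyp7a1 (livers at 10065 to 15348), and KO LeuD livers at CT15 the lowest of Baat (3830 to 4651). Single livers of other groups reach these levels: WT Control CT15 at 11212 for Cyp7a1, and KO LeuD CT03 at 4419 and 3643 for Baat.

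Time of killing was compared first, CT15 with CT03, within each genotype and diet. In WT mice on LeuD, 4 of 10 members were called (adjusted p under 0.05 in limma on log2(normalized count + 1), Benjamini-Hochberg over all genes of the table), beside 9.61% of all genes. Cyp7a1 rose, and the repressor Nr0b2 and the canalicular transporters Abcb11 and Abcb4 fell. These 4 calls held without each of the 6 libraries in turn, while 1 fit of all 24 libraries called Abcb11 alone. No member was called in WT Control (1.42% of all genes; 4 members at an unadjusted p under 0.05, and 0 members by edgeR), KO Control (0.0407%; 0 members at that p, and 0 by edgeR) or KO LeuD (0.805%; 2 members, and 0 by edgeR). At that unadjusted p stood 17.1%, 12.3% and 16.2% of all genes in these 3 conditions. The fit of all 24 libraries did call members for time in KO LeuD, where it called 1176 genes against 120 (counts of members are given under processing). The groups did not overlap for 5 members in WT LeuD (31.6% of all genes), 3 in WT Control (24.2%), 0 in KO Control (19.9%) and 2 in KO LeuD (22.1%). Each KO Control group holds a liver that stood apart from its mates, as given above, and the part of these livers was not tested.

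Cyp7a1 in WT LeuD livers stood at 741, 2331 and 1840.5 normalized counts at CT03 and 10231, 15348 and 10065 at CT15. The groups were far apart, and the log2 change was 2.98 ± 0.38 (SE; 7.91-fold, adjusted p = 0.003). On the Control diet WT values were 2791, 973 and 2974 at CT03 and 874, 11212 and 6536 at CT15. Here 1 CT15 liver, at 874, lay below all 3 CT03 livers, and the 1.99-fold change (SE 0.88 on the log2 scale) did not pass (adjusted p = 0.61). KO Control livers gave 1212, 678 and 7905 and then 789, 3294 and 5247, a change of 0.35 ± 1.02 whose sign differed between limma and edgeR (-0.076). KO LeuD livers gave 3478, 1414 and 793 and then 3527, 6776 and 1849.5, a change of 1.16 ± 0.59 (adjusted p = 0.38). Each of these 3 pairs of groups overlapped. Leaving out the acinar libraries, and so 1 liver of each KO group, gave larger changes, 2.19 in KO Control (adjusted p = 0.05002) and 2.20 in KO LeuD (0.22), beside 3.08 in WT LeuD (0.009). The KO livers left out were the highest of their groups at CT03 (7905 and 3478) and the lowest at CT15 (789 and 1849.5). Larger KO changes therefore follow from which livers were dropped, and the part of the acinar reads was not tested.

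Nr0b2, whose product SHP lacks a DNA-binding domain and represses other receptors, moved the other way in WT LeuD livers, from 1676, 1693 and 1533 to 814, 752 and 695. Its replicates were tight, and the log2 change was -1.12 ± 0.10 (adjusted p = 0.00065). In WT Control livers it was 1109, 1907 and 2401 at CT03 and 1084, 349 and 566 at CT15. These groups did not overlap, with the closest pair at 1109 and 1084, and the change of -1.52 ± 0.42 had an adjusted p of 0.13. KO livers overlapped on both diets: 1469, 2262 and 1185 against 1464, 428 and 853 on Control, and 829, 437 and 1846 against 805, 1224 and 2008 on LeuD, with changes of -0.97 and 0.52. Nr1h4, the bile acid receptor itself, had a higher mean at CT15 in all 4 conditions, by 0.22 to 0.77, and was called in none of them.

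Abcb11, the bile salt export pump, fell in WT LeuD livers from 29242, 35373 and 30639.9 to 12414, 13588 and 8146, a log2 change of -1.51 ± 0.19 (adjusted p = 0.003). The groups did not overlap. WT Control livers went from 26654, 28245 and 24309 to 17733, 14732 and 9807, also without overlap, with a change of -0.94 ± 0.21 (adjusted p = 0.079). Abcb4, which moves phosphatidylcholine into bile, fell in WT LeuD livers from 10152, 13288 and 12919 to 6281, 6924 and 6303 (-0.89 ± 0.12, adjusted p = 0.004). Its WT Control values, 10439, 10167 and 10666 and then 8020.2, 6324 and 7317, did not overlap either (-0.54 ± 0.11, adjusted p = 0.066). In the authors' deposited table for WT Control, Abcb11 (log2 change -0.91, adjusted p = 0.00073), Abcb4 (-0.53, 0.0015) and Cyp7b1 (-1.02, 0.016) passed 0.05. So did 907 of 14630 genes there. In KO livers the log2 changes of the 2 transporters lay between -0.52 and -0.19 with overlapping groups. KO Control CT15 replicate 1, a liver with 633 RPM of acinar and 9182 RPM of periportal markers, held the highest CT15 values of both, 26282 for Abcb11 and 18226 for Abcb4.

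None of the remaining members was called for time in a single condition. Cyp8b1 in WT LeuD livers was 2511, 9664 and 9508 at CT03 and 2306, 3716 and 2329 at CT15, which overlapped (-1.18 ± 0.48, adjusted p = 0.17). Cyp7b1, the oxysterol hydroxylase of the alternative pathway, had lower CT15 means in WT livers (-1.07 ± 0.32 on Control and -0.82 ± 0.26 on LeuD, adjusted p = 0.16 and 0.088). In the authors' deposited table for WT LeuD it passed 0.05 (-0.80, 0.0080), as did 2028 of 14786 genes. In the 4 conditions Cyp27a1 lay between -0.02 and 0.38 and Baat between -0.29 and 0.20. Slc10a1 in KO LeuD livers was 13035, 10686 and 21033 at CT03 and 39119, 22692 and 36882 at CT15. These groups did not overlap and the change was 1.16 ± 0.31 (adjusted p = 0.14). In the authors' deposited table it passed (1.13, 0.0061), as did 844 of 14848 genes. Without KO LeuD CT03 replicate 3, the highest of its group for Slc10a1, the change was 1.43 with an adjusted p of 0.034. Leaving out the highest CT03 liver must enlarge a rise, and fits without 1 library gave 0.95 to 1.43.

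Averaging the time effect over both diets and genotypes in 1 fit of 24 libraries gave 6 of 10 members called, beside 25.1% of all genes. Cyp7a1 (1.38 ± 0.47, adjusted p = 0.036), Nr1h4 (0.41 ± 0.11, 0.007) and Slc10a1 (0.38 ± 0.14, 0.047) rose at CT15. Abcb11 (-0.83 ± 0.14, 0.00019), Nr0b2 (-0.77 ± 0.25, 0.026) and Abcb4 (-0.50 ± 0.14, 0.013) fell. The calls of Nr1h4, Abcb11 and Abcb4 held without each of the 24 libraries in turn. That of Cyp7a1 was lost in 12 of 24 such fits, that of Slc10a1 in 18 and that of Nr0b2 in 3, and Slc10a1 was also not called without the 5 acinar libraries (0.37, adjusted p = 0.13), where Cyp7a1 stood at 2.12 (0.002). Averaged over diets within a genotype, 3 members were called in WT (11.2% of all genes), namely Nr0b2 (-1.32 ± 0.35), Abcb11 (-1.23 ± 0.20) and Abcb4 (-0.71 ± 0.20), and in each of these the 6 CT03 livers all lay above the 6 CT15 livers (6.95% of all genes did not overlap). Without WT Control CT15 replicate 2, 1 of the 3 was called, Abcb11, and without the acinar libraries, or KO Control CT15 replicate 1 alone, 5 members were called, Cyp7a1 and Cyp7b1 added. Without the acinar libraries 1655 of 14474 genes were called. Cyp7a1 in WT was at 1.99 ± 0.66 with an adjusted p of 0.056. In KO, 1 member was called (13.7% of all genes), Nr1h4 (0.55 ± 0.15), and 3 were called without the acinar libraries (1449 of 14474 genes): Nr1h4, Cyp7a1 at 2.20 and Abcb11 at -0.83. For Cyp7a1 the KO livers left out were the highest of their groups at CT03 and the lowest at CT15. For Abcb11 they were the lowest at CT03 and the highest at CT15, so larger changes follow from which livers were dropped. Without KO Control CT15 replicate 1 alone 4 were called, and without KO Control CT03 replicate 2 or KO LeuD CT03 replicate 2 none. Shares of all genes called in these fits without 1 library are not reported here.

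**Figure D2:**
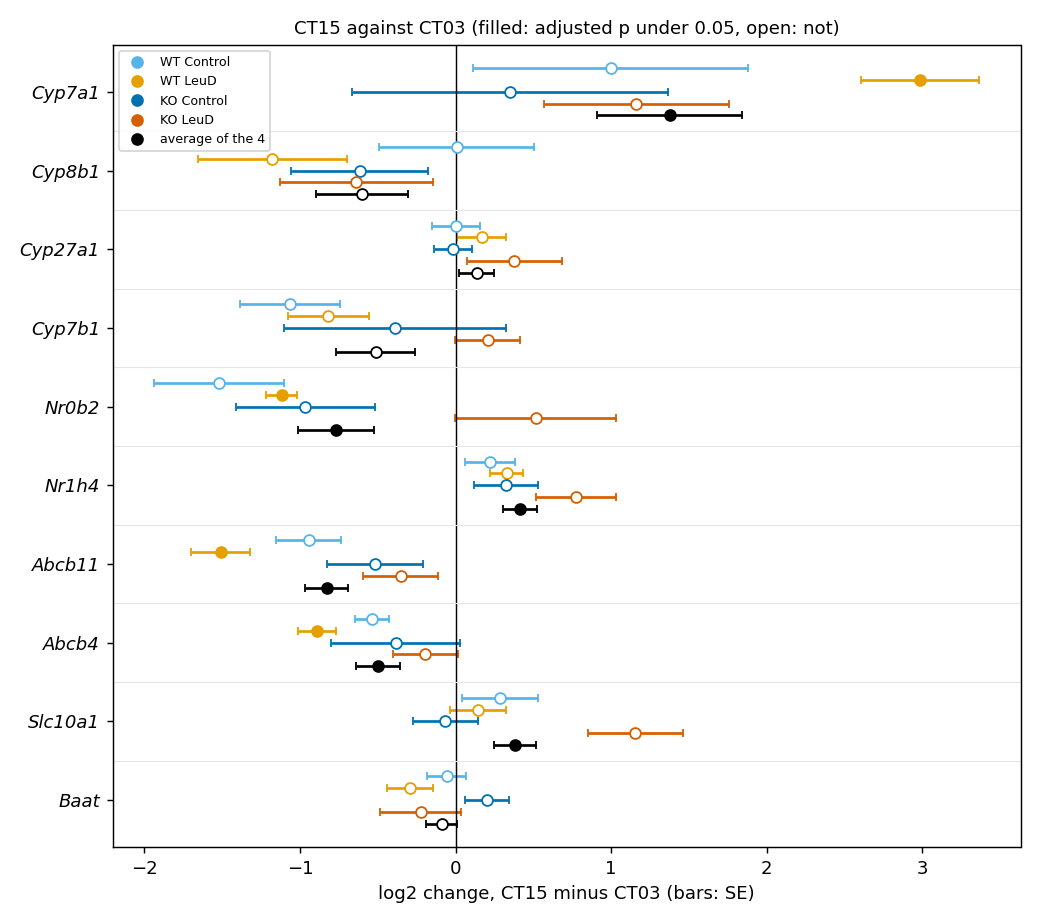
Log2 change from CT03 to CT15 (horizontal axis, bars are SE) of the 10 genes in the 4 combinations of genotype and diet and averaged over them; filled points have an adjusted p under 0.05. Filled single-condition points belong to WT LeuD only, where Cyp7a1 is at 2.98 and Nr0b2, Abcb11 and Abcb4 lie between -1.51 and -0.89.

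Diet was compared next, LeuD with Control, within each genotype and time. No member was called in any of the 4 comparisons, where 2.24% (WT CT03), 0.186% (WT CT15), 0% (KO CT03) and 0.0202% (KO CT15) of all genes were called. At an unadjusted p under 0.05 there were 0, 1, 5 and 2 members, beside 17.8%, 13%, 14.6% and 16% of all genes, and edgeR called 0 members in each. One fit of all 24 libraries did call members in KO at both times (counts are given under processing). It called 628 genes against 0 in KO CT03 and 1219 against 3 in KO CT15. In WT it called 24 against 330 at CT03 and 3 against 28 at CT15. The groups did not overlap for 1, 1, 2 and 1 members, beside 24%, 19.2%, 18.9% and 22.9% of all genes. Averaged over times and genotypes, 2 of 10 members fell on LeuD, Cyp8b1 and Baat, beside 13.9% of all genes, and both calls held without each of the 24 libraries in turn and without the acinar libraries. The erythroid markers given above also separate the diets, with 1 LeuD library, KO LeuD CT15 replicate 1, inside the Control range, and their part in these values was not tested.

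Cyp8b1, the sterol 12-hydroxylase, averaged a log2 change of -1.46 ± 0.30 (2.75-fold lower on LeuD, adjusted p = 0.003). WT livers at CT15 held 4559, 21328 and 11087 on Control and 2306, 3716 and 2329 on LeuD, with no overlap (-1.92 ± 0.49, adjusted p = 0.18). At CT03 WT values were 8625, 8752 and 14120.4 and 2511, 9664 and 9508, overlapping, with 1 LeuD liver at 2511 far below the other two (-0.74 ± 0.47). KO livers at CT03 held 9427, 13406 and 22032 on Control and 4086, 2782 and 9068 on LeuD, without overlap (-1.59 ± 0.47, adjusted p = 0.28). KO livers at CT15 held 5027, 12779 and 12190.0 and 5539, 1889.9 and 2643 (-1.61 ± 0.48, adjusted p = 0.18), and 1 Control liver at 5027 lay below 1 LeuD liver at 5539. The LeuD mean was the lower in all 4 pairs of groups. In the authors' deposited tables Cyp8b1 passed 0.05 in WT CT15 (-2.15, adjusted p = 0.022), KO CT03 (-1.50, 0.029) and KO CT15 (-1.58, 0.0078). Of all genes there, 523 of 14125, 520 of 14822 and 698 of 14491 passed, in the same order. In WT CT03 Cyp8b1 did not pass (-0.54, 0.72).

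Baat, the enzyme that joins bile acids to taurine in mice, averaged -0.49 ± 0.10 (adjusted p = 0.002). That average joins genotypes whose diet effects differed by -0.82 (KO minus WT, tested below), so it does not describe WT alone. The WT changes of Baat were 0.03 ± 0.15 at CT03 and -0.20 ± 0.13 at CT15. Its WT livers overlapped between diets, 8208, 7386 and 9125 against 7191, 7989 and 10325 at CT03 and 6923, 8765 and 8061 against 6592, 7792 and 6317 at CT15. KO livers at CT15 were 9857, 9879.7 and 8134 on Control and 4325, 4651 and 3829.6 on LeuD, far apart, with a change of -1.13 ± 0.15 and an adjusted p of 0.059. KO livers at CT03 were 8368, 7361 and 8339 and 4419, 3643 and 7565, and LeuD replicate 3 overlapped the Control group. In the authors' deposited table for KO CT15, Baat passed (-1.13, adjusted p = 6.4e-07), as did 698 of 14491 genes.

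KO LeuD CT03 replicate 3 stood apart from its 2 group mates in several members. It had 9068 counts of Cyp8b1 against 4086 and 2782, 17332 of Cyp27a1 against 7953 and 9183, 21033 of Slc10a1 against 13035 and 10686, and 7565 of Baat against 4419 and 3643. The same library had 11907 RPM of pericentral markers against 5350 and 6124, 270 RPM of Kupffer cell markers against 461 and 549.9, and a mitochondrial share of 4.14% against 2.24% and 2.86%. The part of these in the values with and without it was not tested. With all 3 livers, all 10 members had a lower mean log2 level on LeuD in KO at CT03, between -1.59 and -0.21, and none was called. Without it 4 were called for diet in KO at CT03, Cyp8b1 (-2.06), Slc10a1 (-1.31) and Baat among them. The share of all genes called in that fit is not reported here. This liver was the nearest of its group to Control in these genes, so larger changes follow from leaving it out. With it, Slc10a1 differed by -1.04 ± 0.25 (adjusted p = 0.23) and in the authors' deposited table passed 0.05 (-0.98, 0.014), as did Cyp7b1 (-1.21, 0.033). There 520 of 14822 genes passed.

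Averaged over times within a genotype, no member was called for diet in WT (2.29% of all genes; 1 member at an unadjusted p under 0.05, beside 16.2% of all genes, and 0 by edgeR), where Cyp8b1 stood at -1.33 ± 0.42 (adjusted p = 0.1). In KO 3 fell (17% of all genes): Cyp8b1 (-1.60 ± 0.42, adjusted p = 0.013), Abcb11 (-0.62 ± 0.20, 0.033) and Baat (-0.91 ± 0.14, 0.00046). The call of Abcb11 was lost in 7 of 24 fits without 1 library. Without the acinar libraries Cyp8b1 (-1.55, adjusted p = 0.076) and Abcb11 (-0.60, 0.062) were not called, Baat was, and Cyp7b1 was called at -1.30. In that fit 1297 of 14474 genes were called. The KO LeuD livers are also the ones with low mitochondrial and high albumin shares given above. Of the 6, 5 have pericentral markers below every WT LeuD and KO Control liver, though inside the WT Control range. The part of these in the KO values was not tested. Cyp7a1, at 0.35 ± 0.47 on average, and Nr0b2, at 0.01 ± 0.25, were not called for diet.

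**Figure D3:**
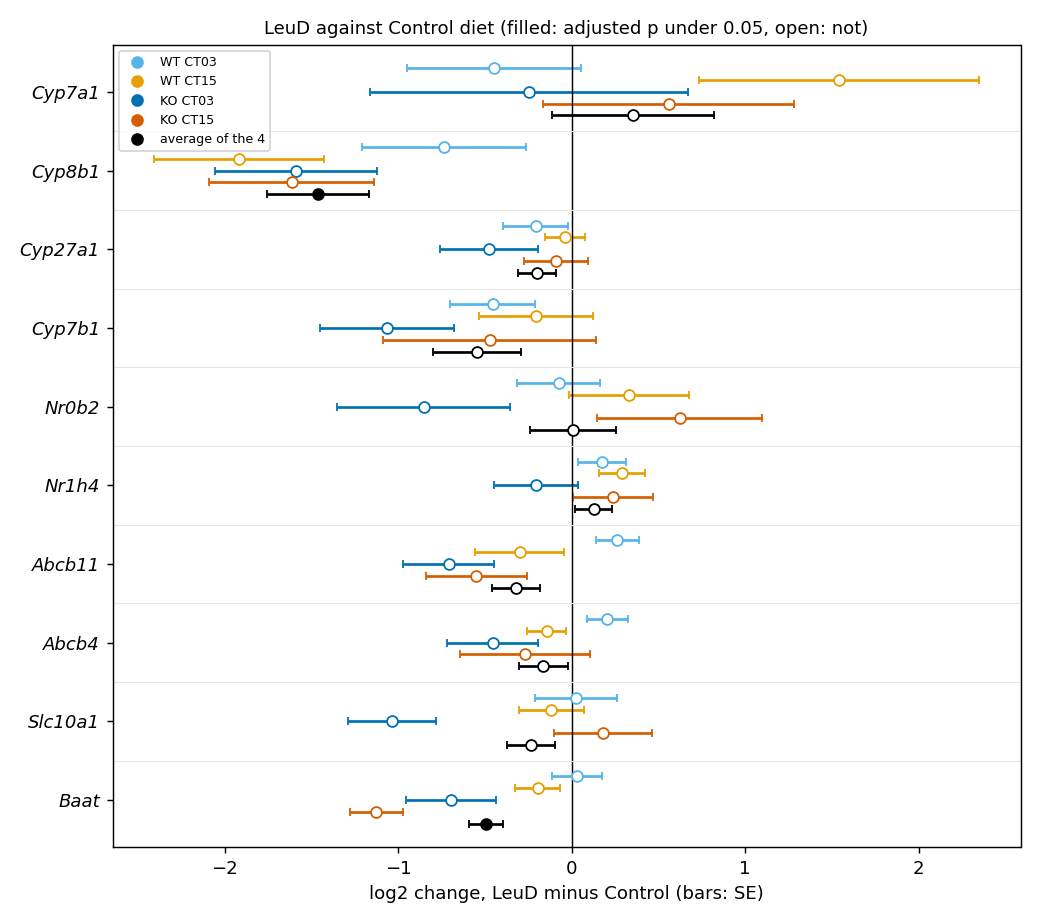
Log2 change from Control to LeuD (horizontal axis, bars are SE) of the 10 genes in the 4 combinations of genotype and time and averaged over them; filled points have an adjusted p under 0.05. Cyp8b1 is below 0 in all 4, from -1.92 to -0.74, and the average is filled for Cyp8b1 and Baat only.

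Genotype was compared within each diet and time. On the Control diet no member was called, at CT03 (0.0136% of all genes; 0 members at an unadjusted p under 0.05, beside 8.18% of all genes, and 0 by edgeR) or at CT15 (0.0798%; 0, beside 5.49%, and 0). The groups overlapped for all 10 members at both times, and did not for 15% and 13.4% of all genes. On LeuD at CT03 none was called (0.0484%; 4 members at an unadjusted p under 0.05, beside 13.7% of all genes, and 0 by edgeR). Cyp7b1, Abcb11 and Nr1h4 were lower in KO there without overlap, 3 of 10 members beside 19.3% of all genes. Cyp7b1 was 10600.0, 10026 and 6576 in WT against 4484, 3737 and 4303 in KO (-1.09 ± 0.20, adjusted p = 0.13). Abcb11 was 29242, 35373 and 30639.9 in WT and 12769, 13351 and 19960.1 in KO (-1.07 ± 0.20, adjusted p = 0.15). Without KO LeuD CT03 replicate 3, 5 members were called there, with Abcb11 at -1.28, Slc10a1 at -1.22, Cyp7b1 at -1.12 and Baat at -1.07 among them. The share of all genes called in that fit is not reported here. That liver was the nearest KO liver to WT in Abcb11, Slc10a1 and Baat, so larger differences follow from leaving it out. On LeuD at CT15, 1 member was called, Baat (-0.69 ± 0.13, adjusted p = 0.042), beside 1.89% of all genes. That call was lost by edgeR (adjusted p = 0.053), without the acinar libraries (0.27) and in 5 of 6 fits without 1 library. Cyp7a1 at CT15 on LeuD was lower in KO without overlap, at the values given above (2 of 10 members did not overlap there, beside 24.5% of all genes), by -1.72 ± 0.41 (adjusted p = 0.074). Fits without 1 library gave -2.19 to -1.25. The largest, -2.19 (adjusted p = 0.023), left out KO LeuD CT15 replicate 2, the highest KO liver, which must enlarge the difference. Averaged over diets and times no member was called for genotype (2.48% of all genes; 1 member at an unadjusted p under 0.05, beside 17.7% of all genes, and 0 by edgeR). Baat, at -0.31 ± 0.10, had an adjusted p of 0.096, and leaving out KO LeuD CT03 replicate 3, the highest of its group for Baat, gave a call at -0.39.

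Whether an effect differed between conditions was tested directly. No member was called for a difference of the time effect between diets in WT (0.00686% of all genes) or KO (0%), between genotypes on Control (0.0275%) or LeuD (0.0207%), or for a difference of the diet effect between genotypes at CT03 (0%) or CT15 (0.0206%). At an unadjusted p under 0.05 the members numbered 0, 1, 0, 6, 3 and 1, beside 6.58%, 6.45%, 5.12%, 9.42%, 13.2% and 12.1% of all genes, and edgeR called 0 members in each. The 6 lay in the time effect on LeuD, where WT and KO differed by 1.16 ± 0.33 for Abcb11, 1.63 ± 0.59 for Nr0b2 and -1.82 ± 0.81 for Cyp7a1 (KO minus WT, adjusted p = 0.38, 0.45 and 0.52). These were 0.95, 1.31 and -0.88 without the acinar libraries (adjusted p = 0.97 in each). For Cyp7a1 and Abcb11 the KO livers left out were those running against the time effect, as given above. The calls in WT LeuD are therefore not shown to be particular to that genotype or diet. Without KO LeuD CT03 replicate 3, 3 members were called for the diet difference at CT03: Abcb11 (-1.17), Slc10a1 (-1.34) and Baat (-1.03). The share of all genes called in that fit is not reported here. That liver was the nearest of its group to Control in these genes, so larger differences follow from leaving it out. Averaged over the other factor, no member was called for time by genotype (0.0345%; 2 members at an unadjusted p under 0.05, beside 7.55% of all genes) or time by diet (0%; 0 members, beside 7.47%), and edgeR called 0 in both. In contrast 1 member, Baat, was called for diet by genotype (1.49% of all genes): its LeuD effect was -0.08 in WT and -0.91 in KO, a difference of -0.82 ± 0.20 (adjusted p = 0.043). The call was lost without the acinar libraries (-0.72, adjusted p = 0.21) and in 18 of 24 fits without 1 library.

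Other steps of synthesis were read from a list of 16 genes, 15 of them tested. For diet averaged over times and genotypes 4 fell and 0 rose, beside 13.9% of all genes called, with a median log2 change of -0.20 over the 15 against 0.00 over all genes. The 3 with the lowest p were Acot8 (-0.43 ± 0.08, adjusted p = 0.001), a peroxisomal acyl-CoA thioesterase, Abcd3 (-0.58 ± 0.11, 0.002), which imports bile acid precursors into peroxisomes, and Scp2 (-0.58 ± 0.12, 0.004), the thiolase that ends side-chain shortening. The remaining one was Hsd17b4 (-0.44 ± 0.10), the peroxisomal D-bifunctional protein, named after its value was seen as it completes the count of 4. Acox2 (-0.12) and Amacr (-0.10), peroxisomal enzymes of the same side-chain steps, were not called (adjusted p = 0.37 and 0.34). In WT alone 0 of 15 were called and the median was -0.09, and in KO alone 6 fell, beside 17% of all genes called, with a median of -0.44, though the difference between the genotypes was called for 0 of 15 (0 also at CT03 and CT15). Acot8 in KO livers at CT15, for example, was 793, 652 and 671 on Control and 520.1, 570.0 and 511 on LeuD, without overlap. In that comparison 22.9% of all genes did not overlap, and 0 of the 15 were called, beside 0.0202% of all genes. Cyp39a1, an oxysterol 7-hydroxylase, rose on LeuD in WT at CT03 from 1037, 284 and 337 to 1531, 3968 and 7521 (2.95 ± 0.61, adjusted p = 0.049), a call that edgeR did not make and that was lost in 4 of 6 fits without 1 library.

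**Figure D4:**
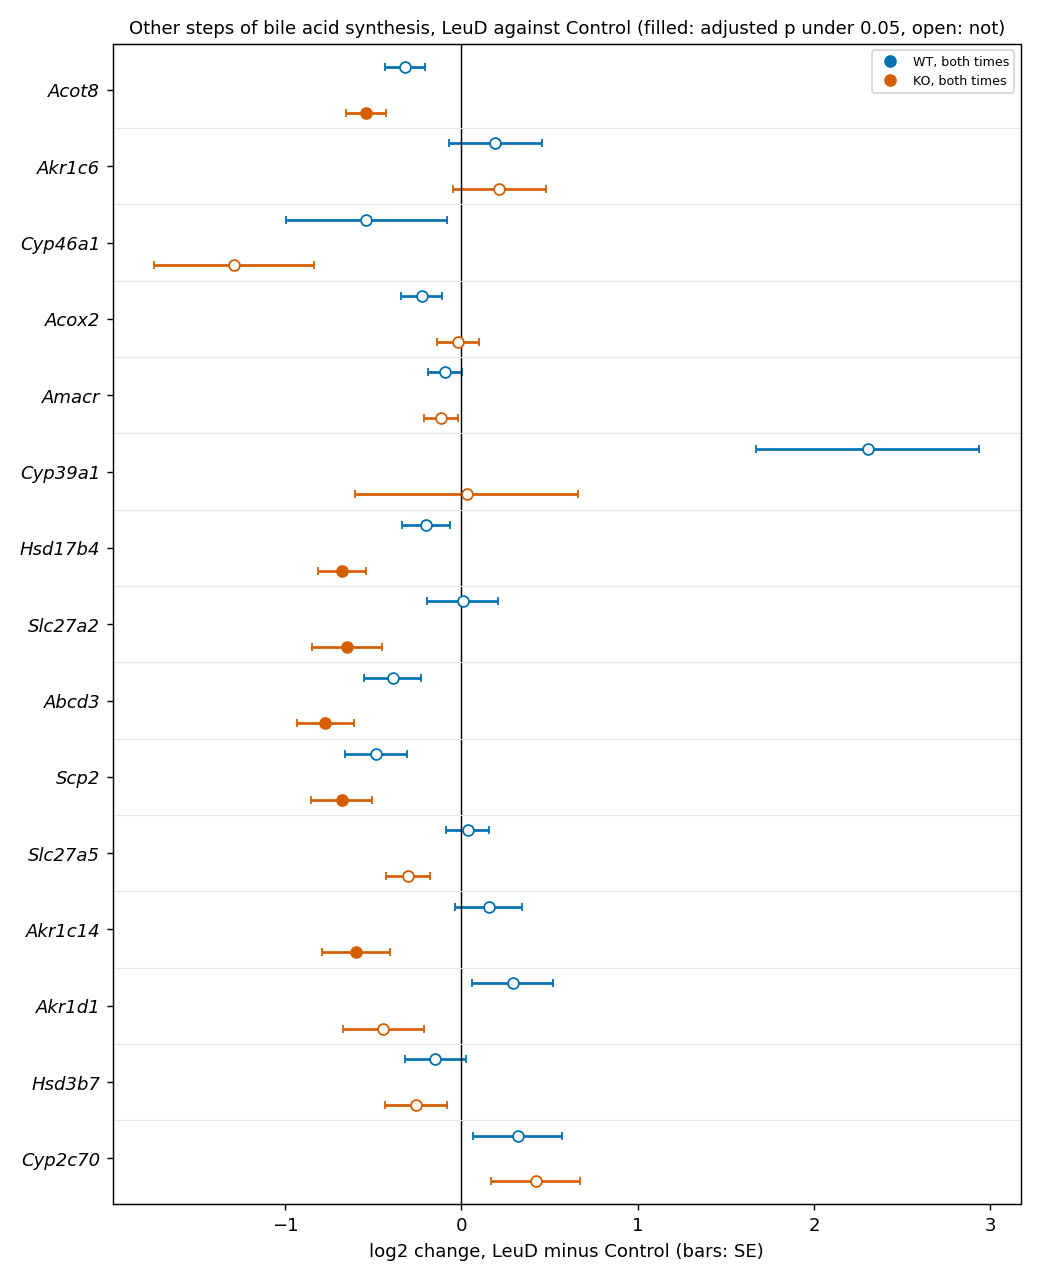
Log2 change from Control to LeuD (horizontal axis, bars are SE), averaged over both times, of 15 further genes of bile acid synthesis, in WT (blue) and KO (orange) livers; filled points have an adjusted p under 0.05. The 6 filled points are all KO and all below 0, and no WT point is filled.

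For time averaged over diets and genotypes, 1 of the 15 synthesis genes rose and 2 fell (median 0.14), a share below the 25.1% of all genes called. Hsd3b7, which acts on the product of Cyp7a1 in the next step, fell by 1.15 on the log2 scale (SE 0.12, adjusted p = 1.8e-06), with WT LeuD livers at 964, 1058 and 635 and then 238, 343 and 348. Its direction was opposite to that of Cyp7a1. Akr1d1, the 5-beta reductase, rose (0.62 ± 0.16) and Acox2, the peroxisomal oxidase of the side chain, fell (-0.26 ± 0.08). Without the acinar libraries 1 of the 15 was called, Hsd3b7, beside 3294 of 14474 genes, and Akr1d1 and Acox2 were not (adjusted p = 0.061 and 0.094).

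Among 14 further transporters of bile acids and lipids, 13 tested, 1 rose and 0 fell with time on average (Slco2b1, 0.38 ± 0.11), and 1 rose and 1 fell with diet, beside 25.1% and 13.9% of all genes. These shares are no higher than those of genes at large for time and close to them for diet. Slco1a4, a basolateral organic anion carrier, rose on LeuD (1.12 ± 0.31, adjusted p = 0.022) and Abcg2, a canalicular efflux pump, fell (-0.49 ± 0.14, 0.026). edgeR did not call Slco1a4 (adjusted p = 0.079). Ephx1, microsomal epoxide hydrolase, fell on LeuD in WT (-0.99 ± 0.22), and Slco1b2 fell in KO (-0.65 ± 0.18). Among 8 genes of bile acid detoxification and conjugation, 5 tested, 2 rose with time and 2 fell with diet, beside the same shares. Cyp2b10, a target of the receptor CAR, did both, at 2.08 ± 0.50 for time and -2.08 ± 0.50 for diet, from low levels of 2.61 to 706 normalized counts. Ugt1a1 rose with time (0.47 ± 0.13) and Ugt2b5 fell with diet (-0.30 ± 0.10), a call lost in 16 of 24 fits without 1 library. Without the acinar libraries the time calls of Slco2b1 and Ugt1a1 (adjusted p = 0.07 in both) and the KO diet call of Slco1b2 (0.11) were lost. In that fit 2 transporters and 1 detoxification gene were called for time, beside 3294 of 14474 genes. Cyp3a11 was higher in KO on average (1.30 ± 0.23, adjusted p = 0.003), the 1 gene called for genotype on average in these 5 lists.

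Of 20 regulators of bile acid genes, 18 tested, 2 rose and 2 fell with time on average, close to the 25.1% of all genes called, and 0 were called for diet or genotype. Nr1h2 (LXR beta) fell (-0.50 ± 0.07), and Ppara and Nr1i2 (PXR) rose (0.51 ± 0.09 and 0.51 ± 0.10). Fgfr4, the liver receptor of the intestinal hormone that represses Cyp7a1, fell (-0.35 ± 0.10, adjusted p = 0.011), while its partner Klb stood at -0.01 ± 0.13, Nr5a2 (LRH-1) at -0.14 ± 0.07 and Hnf4a at 0.12 ± 0.11, none called, though Nr5a2 was called without the acinar libraries (-0.21, adjusted p = 0.026). Of 10 clock factors that act on Cyp7a1, 5 rose and 1 fell with time on average, among them Tef (1.99 ± 0.17) and Nr1d1 (-2.53 ± 0.32). Within single conditions, 7 rose and 2 fell in WT LeuD, 2 rose and 1 fell in WT Control, 4 rose in KO LeuD and 0 were called in KO Control. Of all genes, 9.61%, 1.42%, 0.805% and 0.0407% were called in these conditions. Averaged over diets, 5 rose and 2 fell in WT (11.2% of all genes called) and 4 rose and 1 fell in KO (13.7%). For a difference of the time effect between genotypes 0 were called, on Control (0.0275% of all genes) or LeuD (0.0207%). Loss of the time effect in KO Control is therefore not shown, and each KO Control group holds a liver that stood apart from its mates. Tef rose in WT LeuD (2.96 ± 0.12), KO LeuD (2.57 ± 0.31) and WT Control (1.48 ± 0.18), and Nr1d1 fell in WT Control (-2.53 ± 0.25). Dbp, a PAR bZIP factor of the clock output, rose in WT LeuD (5.15 ± 0.27) from 37.8, 50.2 and 38.5 to 1742, 969 and 2060.3, and in KO LeuD (2.93 ± 0.44). Bhlhe40, a clock repressor, rose in KO LeuD (2.71 ± 0.18). For diet in WT at CT03, 1 rose, Nfil3 (0.92 ± 0.11), and 4 fell, Bhlhe40 (-0.98 ± 0.13) and Tef (-1.08 ± 0.17) with the lowest p among them, beside 2.24% of all genes called. The calls of Dbp and Tef in KO LeuD and of Tef in WT Control were lost in 4 of 6 fits without 1 library, those of Bhlhe40 and Tef for diet in 3 of 6 and that of Nr1d1 in WT Control in 1 of 6, and in KO LeuD those of Bhlhe40 and Tef also without the acinar libraries (adjusted p = 0.054 and 0.16). In 1 fit of 24 libraries the 3 diet calls named here and those of Nr1d1 in WT Control and Dbp in KO LeuD were not made. Any relation of these factors to the Cyp7a1 values was not tested.

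Over the 24 libraries, Cyp7a1 was related to Nr0b2 with a Pearson r of -0.59 (Spearman -0.63) and to Abcb11 with -0.67 (-0.69), while Nr0b2 and Abcb11 had 0.68 (0.71), Abcb11 and Abcb4 0.64 (0.63) and Cyp8b1 and Baat 0.65 (0.70). Cyp7a1 and Cyp8b1 had -0.02 (-0.02). These are descriptions of log2 values over libraries that share diets, times and genotypes, and relations within a group were not computed. In WT Control CT15, livers at 874, 11212 and 6536 counts of Cyp7a1 held 4559, 21328 and 11087 of Cyp8b1, the same order. In KO LeuD CT15, livers at 3527, 6776 and 1849.5 held 5539, 1889.9 and 2643, another order. The pooled values thus do not show that the 2 genes are unrelated between single livers. Among 11945 genes with a mean of at least 50, the closest to Cyp7a1 were Spout1, Sbk1 and Odc1 (r = 0.76, 0.75 and 0.75). Closest to Cyp8b1 were Psen2, Cat, the peroxisomal catalase, and Chdh (0.84, 0.79 and 0.79). Closest to Nr0b2 were Dcaf8, Mtus1 and Cxxc5 (0.78, 0.77 and 0.76), and closest to Abcb11 were Abca2, Pxdn and Rfx4 (0.87, 0.87 and 0.85). Without the 2 libraries farthest from the median of the member, these 12 values of r lay between 0.69 and 0.84. In the annotation, exons of Abcb11 share at most 136 bases with the predicted genes Gm13613 and Gm13614, and whether the counting used strand is not given in the sources used here.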

How the data were processed

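Polyadenylated RNA from 24 mouse livers (8 groups of 3) was sequenced. Per the submitters' processing notes, STAR 2.5.2b, Trimmomatic 0.36, DESeq, DESeq2, Subread 1.5.2 and featureCounts were used with build GRCm39. Their roles and settings, the annotation and any gene filter were not given in the sources used here. Each of 10 deposited tables holds, for 2 groups, a signal per gene and library (counts divided by 1 size factor per library), with the authors' log2 fold change, p-value and adjusted p-value. Whole reads were recovered from the steps of the signal (100% of values whole within 0.01; 0 reads differed between tables that share a library), and 34137121 to 44884200 reads per library resulted.

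Comparisons used limma 3.58.1 (trend) in R 4.3.3 on log2(value + 1) within a table of 14674 to 15073 genes, with Benjamini-Hochberg adjustment and calls at 0.05; a fold on this scale understates changes of low genes. Genotype on LeuD, for which no table was used, and all printed levels used reads over size factors set on 24 libraries. Differences of effects used 12-library fits of genes with a mean of at least 10. The 10 averaged effects came from 1 fit of 24 libraries and were added after the data were seen. edgeR 4.0.16 quasi-likelihood tests on recovered reads, a pseudocount of 8, a mean of at least 10, 1 fit of 24 libraries, a replicate block, and leaving out each library or the 5 acinar libraries were alternatives. Scripts were tested on simulated data.

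The members and gene lists were chosen with earlier results of these data known. Named were the members; up to 3 called genes with the lowest p from each list and comparison; Fgfr4, Klb, Nr5a2, Hnf4a, Dbp and Nr1d1; the 3 genes with the highest Pearson r to Cyp7a1, Cyp8b1, Nr0b2 and Abcb11; and Eif2ak4. The text does not print every gene that this rule takes, and 1 of them is not reported here. The labels call the samples biological replicates but tie no number to a shared litter or day, and p-values measure the spread between these mice. Replicates differed by more than sampling noise (lowest chi-square per degree of freedom 34.7). The files give no coordinates; promoters are from RefSeq on GRCm38.p6, an older build than the authors' GRCm39.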

Additional observations from a re-analysis of the deposited data

Results flagged for a closer look

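4 results differed between conditions by the test of the difference itself. The time effect on Nfil3, a clock-controlled repressor, differed between diets in WT by -1.49 ± 0.18 (LeuD minus Control, adjusted p = 0.038): it was 1189.6, 1331 and 1476 at CT03 and 1230.2, 1207 and 1561 at CT15 on Control, and 2804, 2451 and 2291 and then 851, 1007 and 828 on LeuD. The diet effect averaged over times differed between genotypes (KO minus WT) for Ephx1 by 1.40 ± 0.32 (adjusted p = 0.037), with -0.99 in WT and 0.41 in KO. It differed for Baat by -0.82 ± 0.20 and for Ugt1a1, which conjugates bilirubin, by -1.05 ± 0.26 (adjusted p = 0.0499), with 0.59 in WT and -0.45 in KO. KO LeuD libraries stood apart in mitochondrial and albumin reads, and the part of this in the 3 genotype differences was not tested. Without the acinar libraries none of these 4 calls held (adjusted p = 0.19 for Nfil3, 0.07 for Ephx1, 0.21 for Baat and 0.22 for Ugt1a1). Leaving out 1 library at a time ended the call of Nfil3 in 10 of 12 fits, of Ephx1 in 11 of 24, of Baat in 18 and of Ugt1a1 in 20. edgeR called all 4 (adjusted p = 0.041, 0.029, 0.042 and 0.048 in the same order). With the replicate block Nfil3 (0.098) and Ugt1a1 (0.058) were not called, and in 1 fit of 24 libraries Nfil3 had an adjusted p of 0.999909. No formal outlier test was made, since groups hold 3 mice. KO LeuD CT03 replicate 3 was picked out on its values after they were seen, and the acinar libraries by a threshold on their markers.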

How the results depend on the processing

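The 12 comparisons within tables, 6 differences and 10 averaged effects were recomputed, and counts of called members not named here stayed within 1.5 times their value. With all 24 libraries in 1 fit, 1 member was called for time in WT LeuD, 2 for time in KO LeuD, 2 for diet in KO CT03, 1 for diet in KO CT15 and 0 for genotype on LeuD CT15. The last was 0 also by edgeR, with the replicate block and without the acinar libraries. Without the acinar libraries 5 members were called for time in WT and 3 for time in KO averaged over diets, and 0 for diet by genotype averaged over times. Leaving out each library in turn gave 4 to 5 members for time in WT LeuD, 0 to 1 for time in KO LeuD, 0 to 4 for diet in KO CT03, 0 to 2 for diet in KO CT15, 0 to 5 for genotype on LeuD CT03, 0 to 2 for genotype on LeuD CT15 and 0 to 3 for diet by genotype at CT03. For averaged effects it gave 4 to 6 for time, 2 to 3 for diet, 0 to 1 for genotype, 1 to 5 for time in WT, 0 to 4 for time in KO, 2 to 5 for diet in KO and 0 to 1 for diet by genotype. Shares of all genes in the fits without 1 library are not reported here, so these counts are not set against genes at large. The time effect on Cyp7a1 in KO Control reversed by edgeR (-0.076) and ranged from -0.38 to 1.39 without single libraries and 2.19 without the acinar libraries, and the averaged time effect on Klb, -0.01, from -0.078 to 0.066. With the replicate block 2 members were called for time in KO averaged over diets, and the block changed no other count of members by over 1.5 times but that of genotype on LeuD CT15. Correlations between the deviations of same-numbered mice ran from -0.50 to 0.50, no comparison had all 3 above 0.1, and at most 2 of 3 mice correlated best with their own number, so the numbers were not taken as pairs. Single genes were recomputed for members with an unadjusted p under 0.05, for Cyp7a1 with time, Cyp8b1 with diet and list genes in the comparisons they are named for. Of 37 calls of list genes, 15 were lost without some 1 library, 2 by edgeR, 4 with the replicate block and 10 without the acinar libraries. For the further gene lists, leaving out each library gave 2 to 5 synthesis genes, 1 to 3 transporters and 4 to 6 regulators for time on average, and 4 to 6, 1 to 5 and 0 to 2 for diet.

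Over all genes, calls in 1 fit of 24 libraries were 720 against 1424 for time in WT LeuD, 578 against 6 in KO Control, 1176 against 120 in KO LeuD, 24 against 330 for diet in WT CT03, 3 against 28 in WT CT15, 628 against 0 in KO CT03, 1219 against 3 in KO CT15, 10 against 2 and 24 against 12 for genotype on Control at CT03 and CT15, and 122 against 7 and 565 against 273 on LeuD. For diet by genotype at CT15 they were 81 against 3, for time by diet in KO 37 against 0 and for time by genotype on LeuD 9 against 3. With the replicate block, time gave 42 against 212 in WT Control, 747 in WT LeuD, 0 in KO Control and 69 in KO LeuD, diet 64 in WT CT15 and 0 in KO CT15, and genotype on LeuD 3 and 33. Without the acinar libraries these were 76 for time in KO Control, 9 in KO LeuD, 12 and 87 for diet in WT and KO CT15, 4 and 24 for genotype on LeuD, and on average 128 against 359 for genotype, 1297 against 2457 for diet in KO and 12 against 216 for diet by genotype. By edgeR diet in WT CT15 gave 14. Other counts that differed by over 1.5 times were all 5 or fewer in both. The cause was not tested. The lowest level of any member in a library was 349 normalized counts.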
